A study of Mus musculus with 22 samples.

Results

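Tumours given an antibody to CD40 alone were compared with untreated tumours. The comparison holds 11 of the 22 mouse pancreatic tumours profiled, chosen by their treatment label: 6 anti-CD40 tumours and 5 untreated ones, numbered 1, 2, 3, 5 and 6 in the labels. Each tumour had grown in the pancreas from implanted cells of PDA.7940B, a line that is polyclonal and was derived from the pancreatic ductal adenocarcinoma of KPC mice, a genetic model of the disease that rests on a Cre recombinase in the pancreas. The genotype label of every sample is WT. The anti-CD40 group received 1 intraperitoneal dose of 0.1 mg of clone FGK45, which activates mouse CD40, and the tumours were taken 10 days later. The 6 beta-glucan tumours, used below for a direct contrast of the 2 agents, came from mice given 1 intravenous dose of 1.2 mg and were also taken at 10 days. The labels name no control antibody for the untreated group, and they do not say that the tumours came from separate mice, so p-values here measure a spread between samples, which may in part be technical. For the limma tests below that spread comes from all 22 tumours, the 5 given both agents among them. The readout was 3' mRNA sequencing of RNA from fixed, paraffin-embedded sections.

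CD40 is a receptor of the tumour necrosis factor (TNF) receptor superfamily on B cells, dendritic cells and macrophages. Its natural ligand, CD40L, sits on activated T helper cells. Signalling through CD40 runs through TRAF adaptor proteins to the transcription factor NF-kB, makes dendritic cells and B cells display more antigen and more costimulatory molecules, and induces interleukin-12, a cytokine that drives T cells and natural killer cells to make interferon-gamma. Interferon-gamma in turn raises antigen presentation by MHC proteins and the chemokines that draw activated T cells. Pancreatic ductal adenocarcinoma usually holds few T cells and B cells. All values below come from bulk tissue, in which fewer cells of a type and less RNA per cell cannot be told apart.

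The untreated tumours had 7375930 to 9340171 reads and the anti-CD40 tumours 6327092 to 21173617. The tumours also varied in how much pancreatic acinar RNA they held, acinar cells being the enzyme-secreting cells of the normal pancreas. The summed share of reads on 46 acinar genes was 0.0658%, 0.0655%, 3.50%, 4.24% and 19.3% in untreated tumours 1, 2, 3, 5 and 6. In anti-CD40 tumours 1 to 6 it was 0.726%, 38.1%, 36.7%, 32.2%, 3.06% and 75.7%. Anti-CD40 tumours 1 and 5 thus lay within the untreated range and the other 4 above it. The mean share was 31.1% ± 27.5 (SD, n = 6) against 5.43% ± 7.97 (SD, n = 5), a difference of 25.7 percentage points (SE 11.8), and an exact two-sided permutation test over tumours gave p = 0.0606. The difference fell to 16.7 points without anti-CD40 tumour 6, and p was 0.0317 without anti-CD40 tumour 1 or 5. With any other tumour left out the same test gave p from 0.076 to 0.114. Reads outside the acinar genes numbered 3400141 in anti-CD40 tumour 6 and 4287820 in tumour 4, against 14825225 in tumour 1, so low genes were read least precisely in tumours 4 and 6. Each gene group below was therefore also examined with the acinar level as a covariate, and in anti-CD40 tumours 1 and 5 alone against the untreated tumours. This second subset was chosen after the data were seen.

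**Figure D1:**
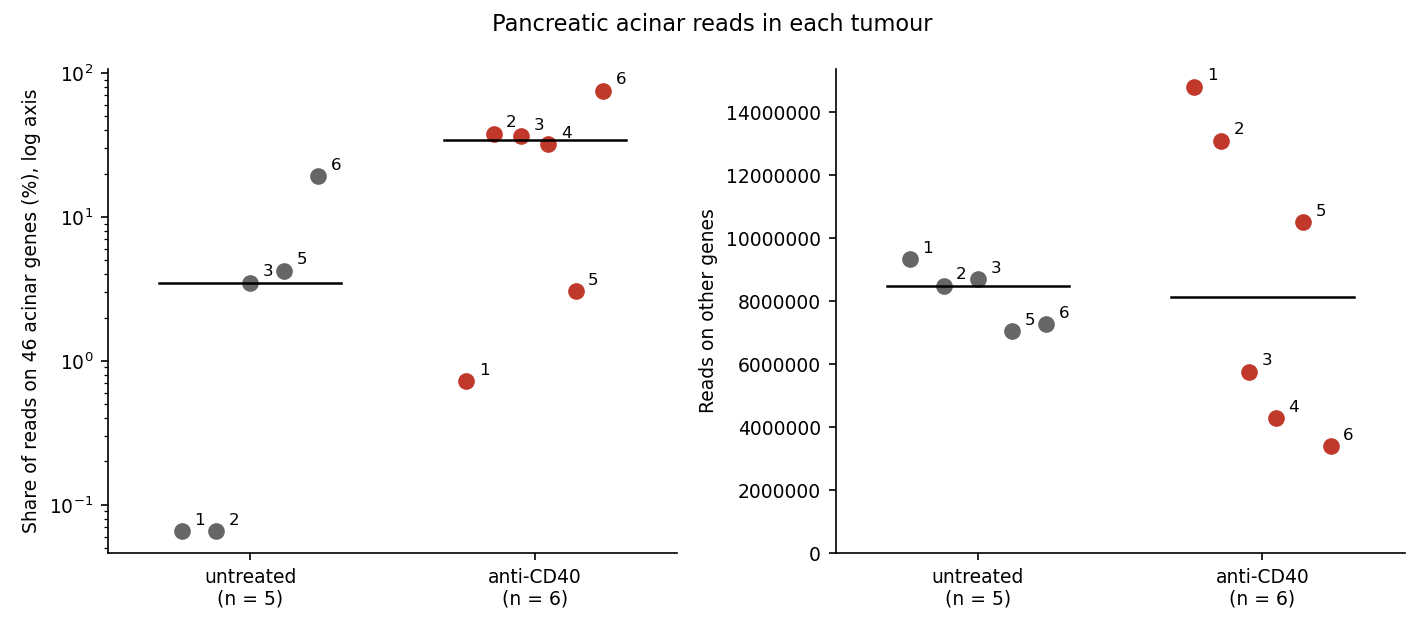
Share of reads on 46 pancreatic acinar genes (left, percent, log axis) and number of reads on all other genes (right) in each untreated and anti-CD40 tumour. Points are tumours, numbered as in the labels, and bars are group medians. Anti-CD40 tumours 1 and 5 (0.726% and 3.06%) lie inside the untreated range and tumours 2, 3, 4 and 6 above it.

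Of 14278 genes tested by limma on log2(normalized count + 1), 2650 (18.6%) differed between anti-CD40 and untreated tumours at an adjusted p under 0.05. Of these, 1571 (11% of the genes tested) were higher with anti-CD40 and 1079 (7.56%) were lower. The median log2 fold change over all genes was 0.00. In 718 genes (5.03%) every anti-CD40 tumour was above every untreated tumour, and in 582 genes (4.08%) every one was below. With the acinar level as a covariate 1673 genes were called, 1097 higher (7.68%) and 576 lower (4.03%). Anti-CD40 tumours 1 and 5 alone gave 1408 genes higher (9.86%) and 900 lower (6.30%). When the values were rescaled to equal totals, the median of all genes moved to -0.56 and the split became 536 higher (3.75%) and 1858 lower (13.0%). Acinar genes held 32.2% to 75.7% of the reads in anti-CD40 tumours 2, 3, 4 and 6, and their part in this shift was not tested. Rescaling to equal totals of the genes outside the acinar list gave 1582 higher and 1036 lower. Of the genes named below and called higher, H2-K1, H2-Oa, Psmb9, Ly6c1, Cd83, Fcer1g, Cd40, H2-D1, Flt4, Oasl2, Tnfsf13b, Stat2, Flt3l, Ccr2, Traf1, Trp53inp1, Etv1, Rgs5, Fcgr3, Cd200, Wt1, Creld2, Bst2, Dnajb11, Dnajc3, Nfkbia, Ccng1, Tgfb3, Ccne1, Sdha and Pnpla2 were not called under equal totals (limma adjusted p from 0.056 to 0.94). Counts of list members below stand against the shares of all genes given here, each setting against its own. Log2 fold changes below are on the scale of the authors' normalization. The untreated values of each gene are given in the order of tumours 1, 2, 3, 5 and 6, as normalized counts.

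**Figure D2:**
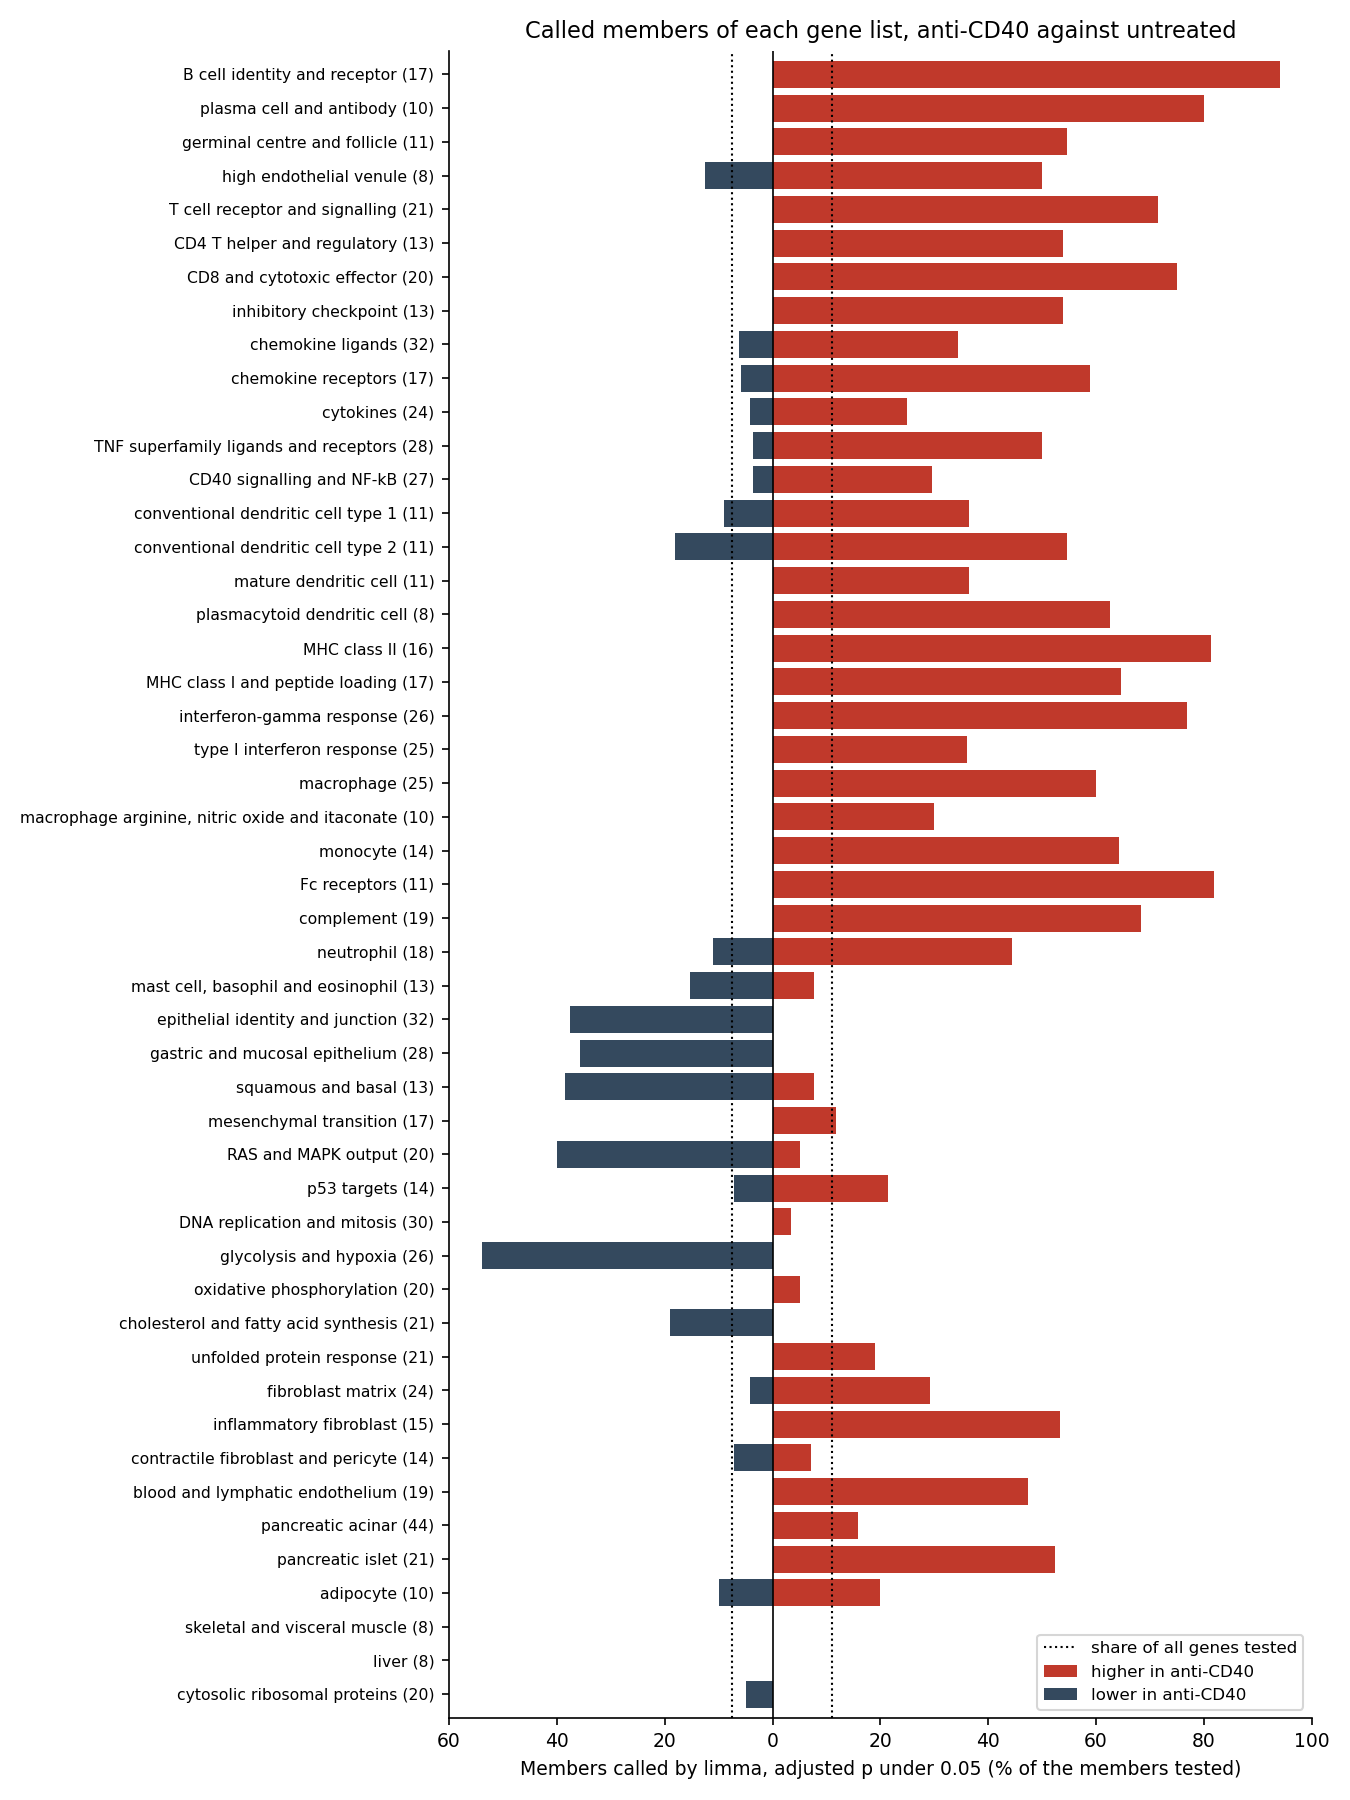
Percent of the tested members of each gene list with at least 8 tested members that limma called higher (right) or lower (left) in anti-CD40 than in untreated tumours. The number of tested members stands in brackets, and dotted lines mark the shares among all genes tested, 11% higher and 7.56% lower. The B cell, Fc receptor, MHC class II and plasma cell lists reach furthest to the right, and the glycolysis and hypoxia list furthest to the left.

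The receptor itself and part of its signalling chain were higher. Cd40 (chr2:165055627-165072948 in mm10) read 18.3, 44.0, 45.6, 30.9 and 76.4 in the untreated tumours and 64.6 to 316 (median 137) in the anti-CD40 tumours. The groups overlapped, because untreated tumour 6 was above anti-CD40 tumours 3 and 4. The log2 fold change was 1.75 ± 0.39 (SE; limma adjusted p = 0.0026). Its ligand gene Cd40lg was near 0 in most tumours, with 0, 0, 0, 0 and 7.51 in the untreated and 0 to 18.9 (median 3.02) in the anti-CD40 tumours, and no difference was called (log2 fold change 1.56 ± 0.90, limma adjusted p = 0.25). Of 27 tested genes of CD40 signalling and NF-kB, 8 rose and 1 fell, against 11% and 7.56% of all genes, with a median log2 fold change of 0.82. Rescaling to equal totals left 1 higher (Cd86) and 1 lower, beside 3.75% and 13.0% of all genes. It took the calls of Cd40, Traf1 and Nfkbia (limma adjusted p = 0.088, 0.19 and 0.56). The gene with the smallest p of the 27 was Cd86, a costimulatory ligand of CD28 on antigen-presenting cells, at 26.6, 17.3, 5.26, 41.2 and 28.8 in the untreated and 84.5 to 220.2 (median 146) in the anti-CD40 tumours. Every anti-CD40 tumour was above every untreated tumour, and the log2 fold change was 2.73 ± 0.39 (SE; limma adjusted p = 2.7e-05). Traf1, a TRAF adaptor that NF-kB induces, rose by 1.55 ± 0.33, and Nfkbia, the NF-kB inhibitor that NF-kB itself switches on, by 0.94 ± 0.21 (limma adjusted p = 0.0016 and 0.0029). Bcl3, an IkB family protein, was the member that fell (-0.98 ± 0.27, limma adjusted p = 0.011; adjusted p = 0.18 with the acinar covariate). The 18 genes not called included the NF-kB subunits Rela, Relb, Rel, Nfkb1 and Nfkb2.

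Other members of the TNF family moved in the same direction. Among 28 tested ligands and receptors of the TNF superfamily, 14 rose and 1 fell, beside 11% and 7.56% of all genes. Under equal totals 9 rose and 2 fell, beside 3.75% and 13.0% of all genes. Tnfrsf13b, which encodes TACI, a receptor for the B cell survival factors BAFF and APRIL, read 43.3, 31.1, 41.2, 24.1 and 32.6 in the untreated tumours and 131 to 269 (median 175) in the anti-CD40 tumours. No anti-CD40 tumour came within the untreated range, and the log2 fold change was 2.39 ± 0.25 (SE; limma adjusted p = 6.4e-07). The BAFF gene Tnfsf13b rose as well (1.91 ± 0.49, limma adjusted p = 0.0081), a call that was lost under equal totals (adjusted p = 0.13). Tnfsf10, the death ligand TRAIL, went from 15.8, 6.04, 9.65, 9.16 and 6.26 to 61.6 to 197 (median 91.1), without overlap (3.29 ± 0.39, limma adjusted p = 2.6e-06). Fas, the receptor of Fas ligand, rose by 2.27 ± 0.36 and Tnfrsf18, the T cell costimulator GITR, by 2.18 ± 0.33 (limma adjusted p = 9.3e-05 and 6.3e-05). Tnfsf15, a ligand known from endothelial and myeloid cells, was the member that fell (-1.51 ± 0.40, limma adjusted p = 0.0094). Tnf was not called over all 6 anti-CD40 tumours, with 42.4, 34.5, 43.0, 30.9 and 11.3 in the untreated and 16.3 to 122 (median 56.3) in the anti-CD40 tumours (0.81 ± 0.43, limma adjusted p = 0.21). It was called higher without anti-CD40 tumour 6 (adjusted p = 0.046) and with the acinar level as a covariate (1.54, adjusted p = 0.022).

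Il12b, the shared subunit of interleukin-12 and interleukin-23, read 0, 0, 14.9, 13.7 and 17.5 in the untreated tumours and 22.4 to 158 (median 43.5) in the anti-CD40 tumours. All 6 anti-CD40 tumours were above the highest untreated tumour, with a log2 fold change of 3.18 ± 0.82 (SE; limma adjusted p = 0.0078). With the acinar covariate it was 2.25 and no longer called (adjusted p = 0.11). Il12b belongs to a list of 11 mature dendritic cell genes, of which 4 rose and 0 fell (2 rose under equal totals). The others were Cd83, a maturation marker (1.89 ± 0.45, limma adjusted p = 0.0046), Il15ra, which presents interleukin-15 to lymphocytes (3.36 ± 0.90, limma adjusted p = 0.01), and Cd200, a surface glycoprotein that restrains myeloid cells (1.49 ± 0.49, limma adjusted p = 0.037). The call of Cd200 was lost without any 1 of anti-CD40 tumours 1 and 5 or untreated tumours 1, 5 and 6 (adjusted p from 0.066 to 0.11). The migration genes Ccr7 and Fscn1 and the chemokines Ccl17 and Ccl22 of that list were not called. Type 1 conventional dendritic cells cross-present antigen to CD8 T cells. Of 11 of their genes 4 rose and 1, Cadm1, fell, beside 11% and 7.56% of all genes. Irf8, a transcription factor of that lineage and of B cells and macrophages, went from 641, 603, 387, 387 and 452 to 1630.3 to 4338 (median 1868) (2.12 ± 0.21, limma adjusted p = 3.8e-07). Wdfy4, needed for cross-presentation, went from 94.8, 123, 140.4, 105 and 62.6 to 252 to 649 (median 420.0) (2.04 ± 0.27, limma adjusted p = 1.1e-05). Both rose without overlap. Xcr1 and Clec9a, more restricted markers of these cells, had log2 fold changes of 1.65 ± 0.66 and 1.26 ± 0.51 and were not called (limma adjusted p = 0.084 and 0.087; both named with their values known). For type 2 conventional dendritic cells 6 of 11 rose (3 under equal totals), among them Clec10a, a lectin (2.62 ± 0.36, limma adjusted p = 1.6e-05), and Klf4 and Tnip3 fell, the latter not with the acinar covariate (adjusted p = 0.21). Of 8 genes of plasmacytoid dendritic cells, the main makers of type I interferon, 5 rose, and 3 under equal totals. Siglech, a surface lectin of these cells, went from 0, 0.863, 7.90, 0 and 6.26 to 19.8 to 60.6 (median 40.2) (3.81 ± 0.73, limma adjusted p = 0.00065).

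Of 24 tested cytokine genes 6 rose and 1 fell, beside 11% and 7.56% of all genes. Their median log2 fold change of 0.06 became -0.47 under equal totals. The 6 were Ltb, Il16, Ifng, Flt3l, Il12b and Tgfb3. Il16, a chemoattractant of CD4 T cells that lymphocytes release, read 53.2, 29.3, 79.0, 25.2 and 203 in the untreated tumours and 234 to 532 (median 247) in the anti-CD40 tumours (2.27 ± 0.41, limma adjusted p = 0.00038). Il18, an inflammasome cytokine stored in epithelium and macrophages, fell from 330.3, 391, 225, 243 and 239 to 105 to 198 (median 139), without overlap (-0.98 ± 0.22, limma adjusted p = 0.0027). Csf3, Lif, Il11, Il33, Il1a and Csf1, cytokines that pancreatic tumour cells and fibroblasts can make, were not called.

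B cell and plasma cell genes rose, and Mzb1, Jchain and Pax5 were among the 12 largest rises of all. Of 17 tested B cell genes, 16 rose and 0 fell, with a median log2 fold change of 3.53; with the acinar covariate 16 rose and in tumours 1 and 5 alone all 17 did. Cd79a and Cxcr5 of that list did not pass the filter on low values. Cd79b, a signalling chain of the B cell receptor, read 3.33, 3.45, 12.3, 9.16 and 46.3 in the untreated tumours and 263 to 508 (median 375) in the anti-CD40 tumours. Untreated tumour 6 was the highest of its group, and every anti-CD40 tumour was above it (5.16 ± 0.51, limma adjusted p = 3.8e-07). Pax5, the transcription factor that holds B cell identity, rose from at most 5.26 in untreated tumours to 40.8 to 265 (median 199), a log2 fold change of 6.12 ± 0.88 (SE; limma adjusted p = 2.9e-05). Pou2af1, a B cell coactivator needed for germinal centres, had the smallest p of the plasma cell list: it read 11.6, 10.4, 10.5, 10.3 and 21.3 in the untreated tumours and 348 to 877 (median 480.5) in the anti-CD40 tumours. Untreated tumour 6 was the highest of its group and still far below every anti-CD40 tumour, with a log2 fold change of 5.33 ± 0.39 (SE; limma adjusted p = 1.4e-08).

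Among 10 tested genes of plasma cells, 8 rose. The immunoglobulin heavy and light chain genes of the lists were not analysed here. Jchain, which joins antibody units into multimers (chr5:88519809-88527891), read 36.6, 19.0, 14.0, 48.1 and 32.6 in the untreated tumours and 1126 to 3965 (median 2992) in the anti-CD40 tumours. Even the lowest anti-CD40 tumour, tumour 2, was far above every untreated tumour (log2 fold change 6.50 ± 0.63, limma adjusted p = 6.4e-07). Mzb1, a chaperone of antibody assembly, went from 0, 4.32, 0, 11.5 and 15.0 to 339.9 to 945 (median 444) and was the largest rise of all genes named by size (6.93 ± 0.83, limma adjusted p = 6.4e-06). Irf4, a transcription factor of plasma cells and activated lymphocytes, rose by 4.71 ± 0.48 (limma adjusted p = 4.1e-07). The regulators of secretion Xbp1 and Prdm1 were the 2 members not called (log2 fold changes 0.99 ± 0.45 and 0.29 ± 0.33). Both are also transcribed in epithelial or secretory cells.

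Some genes of lymphoid follicles and of the venules through which lymphocytes enter lymph nodes rose. Of 11 tested genes of germinal centres and follicles 6 rose and 0 fell (4 rose with the acinar covariate and 3 under equal totals), and of 8 of high endothelial venules 4 rose and 1 fell (2 rose under equal totals). Cxcl13, the chemokine that gathers B cells into follicles, read 3.33, 9.49, 7.90, 6.87 and 0 in the untreated tumours and 63.5 to 352 (median 132) in the anti-CD40 tumours. Every anti-CD40 tumour was above every untreated tumour, tumour 3 furthest (log2 fold change 4.86 ± 0.56, limma adjusted p = 1.9e-06). Ltb, a lymphotoxin chain that organises lymphoid tissue, went from 24.1, 9.49, 7.02, 8.02 and 41.3 to 61.2 to 451 (median 164) (3.35 ± 0.49, limma adjusted p = 4e-05), and Ccl19, the CCR7 ligand of T cell zones, rose by 3.39 ± 0.73 (limma adjusted p = 0.0019). Glycam1, a mucin-like ligand for lymphocyte homing, had no read in any untreated tumour and read 29.0 to 149 (median 54.4) in the anti-CD40 tumours. Against a floor of 3 reads over the untreated group, its mean was at least 120.4-fold higher. Madcam1, a homing ligand of high endothelial venules, rose by 4.22 ± 0.69 (limma adjusted p = 0.00012). Chst4, a sulfotransferase of the same venules that epithelium also makes, was the member that fell (-3.76 ± 0.72, limma adjusted p = 0.00067). Bcl6, a transcription factor of germinal centre B cells, was not called (limma adjusted p = 0.8; chosen after its values were seen). Glycam1 and Madcam1 are also markers of lymph nodes, and the part of any nodal tissue in the sections in the B cell values was not tested.

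T cell and cytotoxic genes rose as well. Of 21 tested genes of the T cell receptor and its signalling, 15 rose, 0 fell and the median log2 fold change was 2.97. Cd3e, a chain of the T cell receptor complex, read 14.1, 19.0, 1.75, 14.9 and 28.8 in the untreated tumours and 97.7 to 422 (median 194) in the anti-CD40 tumours (log2 fold change 3.91 ± 0.55, limma adjusted p = 2.4e-05). The naive and memory T cell genes Ccr7, Tcf7 and Lef1 were among the 6 members not called. Cd4 went from 12.5, 15.5, 14.0, 12.6 and 15.0 to 81.5 to 333 (median 142) and Cd8a from 66.6, 52.6, 14.9, 29.8 and 48.8 to 111 to 367 (median 238). Neither gene's groups overlapped (log2 fold changes 3.30 ± 0.46, limma adjusted p = 2.1e-05 and 2.51 ± 0.41, limma adjusted p = 0.00013). Of 13 genes of helper and regulatory CD4 T cells, 7 rose, among them Icos, a costimulator of helper T cells (3.59 ± 0.50, limma adjusted p = 2.2e-05), and Ctla4, an inhibitory receptor (3.41 ± 0.71, limma adjusted p = 0.0015). Foxp3, the regulatory T cell factor, read 0, 8.63, 0, 0 and 31.3 and then 0 to 44.8 (median 13.8) and was not called (1.82 ± 0.95, limma adjusted p = 0.2). It was called higher when anti-CD40 tumour 6, which had no Foxp3 read, or untreated tumour 6, the highest untreated one, was left out (adjusted p = 0.049 and 0.04).

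Of 20 tested genes of CD8 T cells and cytotoxic effectors, 15 rose and 0 fell (median log2 fold change 2.97). Gzma, a granule protease of cytotoxic lymphocytes, read 34.9, 19.0, 21.1, 40.1 and 55.1 in the untreated tumours and 134 to 725 (median 283) in the anti-CD40 tumours (log2 fold change 3.09 ± 0.41, limma adjusted p = 1.3e-05). Nkg7, a granule membrane protein, went from 116, 91.5, 36.0, 81.3 and 57.6 to 409 to 1590.3 (median 678) (3.39 ± 0.39, limma adjusted p = 2.1e-06). Anti-CD40 tumour 5 was the highest for both. Ifng itself, at 4.16, 0.863, 10.5, 12.6 and 0 in the untreated tumours, reached 19.8 to 138 (median 59.6) with anti-CD40, again without overlap and highest in tumour 5 (3.72 ± 0.71, limma adjusted p = 0.00061). Perforin, Gzmk and the natural killer receptor Ncr1 did not pass the filter on low values. Among 13 inhibitory checkpoint genes 7 rose and 0 fell (4 rose under equal totals). Pdcd1, which encodes PD-1, went from 43.3, 14.7, 16.7, 14.9 and 42.6 to 78.2 to 308 (median 191) (2.74 ± 0.53, limma adjusted p = 0.00072). Of the ligands of PD-1, Pdcd1lg2 rose (2.28 ± 0.39, limma adjusted p = 0.00019), while Cd274, which encodes PD-L1, read 154, 57.8, 90.4, 181 and 254 and 76.1 to 231 (median 193) and was not called (0.36 ± 0.44, limma adjusted p = 0.63).

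Several chemokine ligands rose together with their receptors. Of 32 ligands 11 rose and 2 fell, and of 17 receptors 10 rose and 1 fell. Under equal totals 8 ligands rose and 2 fell and 4 receptors rose and 1 fell, and with the acinar covariate 0 members of either list fell. Cxcl9, an interferon-gamma induced ligand of CXCR3, read 1275, 468, 353, 711 and 834 in the untreated tumours and 5583 to 14326 (median 7522) in the anti-CD40 tumours. It was the ligand with the smallest p (log2 fold change 3.57 ± 0.32, limma adjusted p = 1.3e-07). Its receptor gene Cxcr3, carried by activated T cells, went from 16.6, 3.45, 6.14, 3.44 and 8.77 to 59.4 to 519.9 (median 197) without overlap (4.76 ± 0.71, limma adjusted p = 5e-05). Ccl5, a chemokine made by activated T cells, went from 136, 129, 47.4, 156 and 317 to 2075 to 13723 (median 3246), with tumours 2 and 5 above the others (4.94 ± 0.45, limma adjusted p = 2.5e-07). Ccr6, a receptor of B cells and some helper T cells, read 0, 0, 5.26, 5.73 and 28.8 and then 115 to 359 (median 176), the largest rise among the receptors (5.44 ± 0.85, limma adjusted p = 8.6e-05). Cxcr6, a receptor of tissue T cells, rose by 3.38 ± 0.48, and Ackr4, a scavenger of CCL19 and CCL21, by 4.27 ± 0.76 (limma adjusted p = 2.7e-05 and 0.00031). Ccr2, the receptor of inflammatory monocytes, rose by 1.59 ± 0.43 (limma adjusted p = 0.012), and the call was just lost with the acinar covariate (0.051) and under equal totals (0.18).

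The pair that draws neutrophils went the other way. Cxcl2 read 87.4, 60.4, 139.5, 81.3 and 66.4 in the untreated tumours and 2.72 to 89.7 (median 26.2) in the anti-CD40 tumours, and its receptor gene Cxcr2 read 17.5, 53.5, 47.4, 24.1 and 36.3 and then 0 to 40.5 (median 12.2). Anti-CD40 tumour 1 lay within the untreated range for both, tumour 3 also for Cxcr2, and tumour 6 was the lowest for both. The log2 fold changes were -1.87 ± 0.57 (SE; limma adjusted p = 0.024) and -1.80 ± 0.63 (SE; limma adjusted p = 0.047). Both calls were lost with the acinar covariate (adjusted p = 0.22 and 0.26) and in tumours 1 and 5 alone (0.77 and 0.57), Cxcl2 also without untreated tumour 3 (0.063) and Cxcr2 without any 1 of anti-CD40 tumours 2, 4, 5 and 6 or untreated tumours 2, 3, 5 and 6 (0.053 to 0.11). By edgeR neither was called (adjusted p = 0.086 for Cxcl2 and 0.13 for Cxcr2). Cxcr2 was also not called by DESeq2 (adjusted p = 0.076), nor by limma with a pseudocount of 0.5 or 8 or without the filter (0.055 each). Cxcl17, a mucosal chemokine, also fell (-3.32 ± 1.04, limma adjusted p = 0.03; adjusted p = 0.24 with the covariate; named because only 2 ligands fell).

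**Figure D3:**
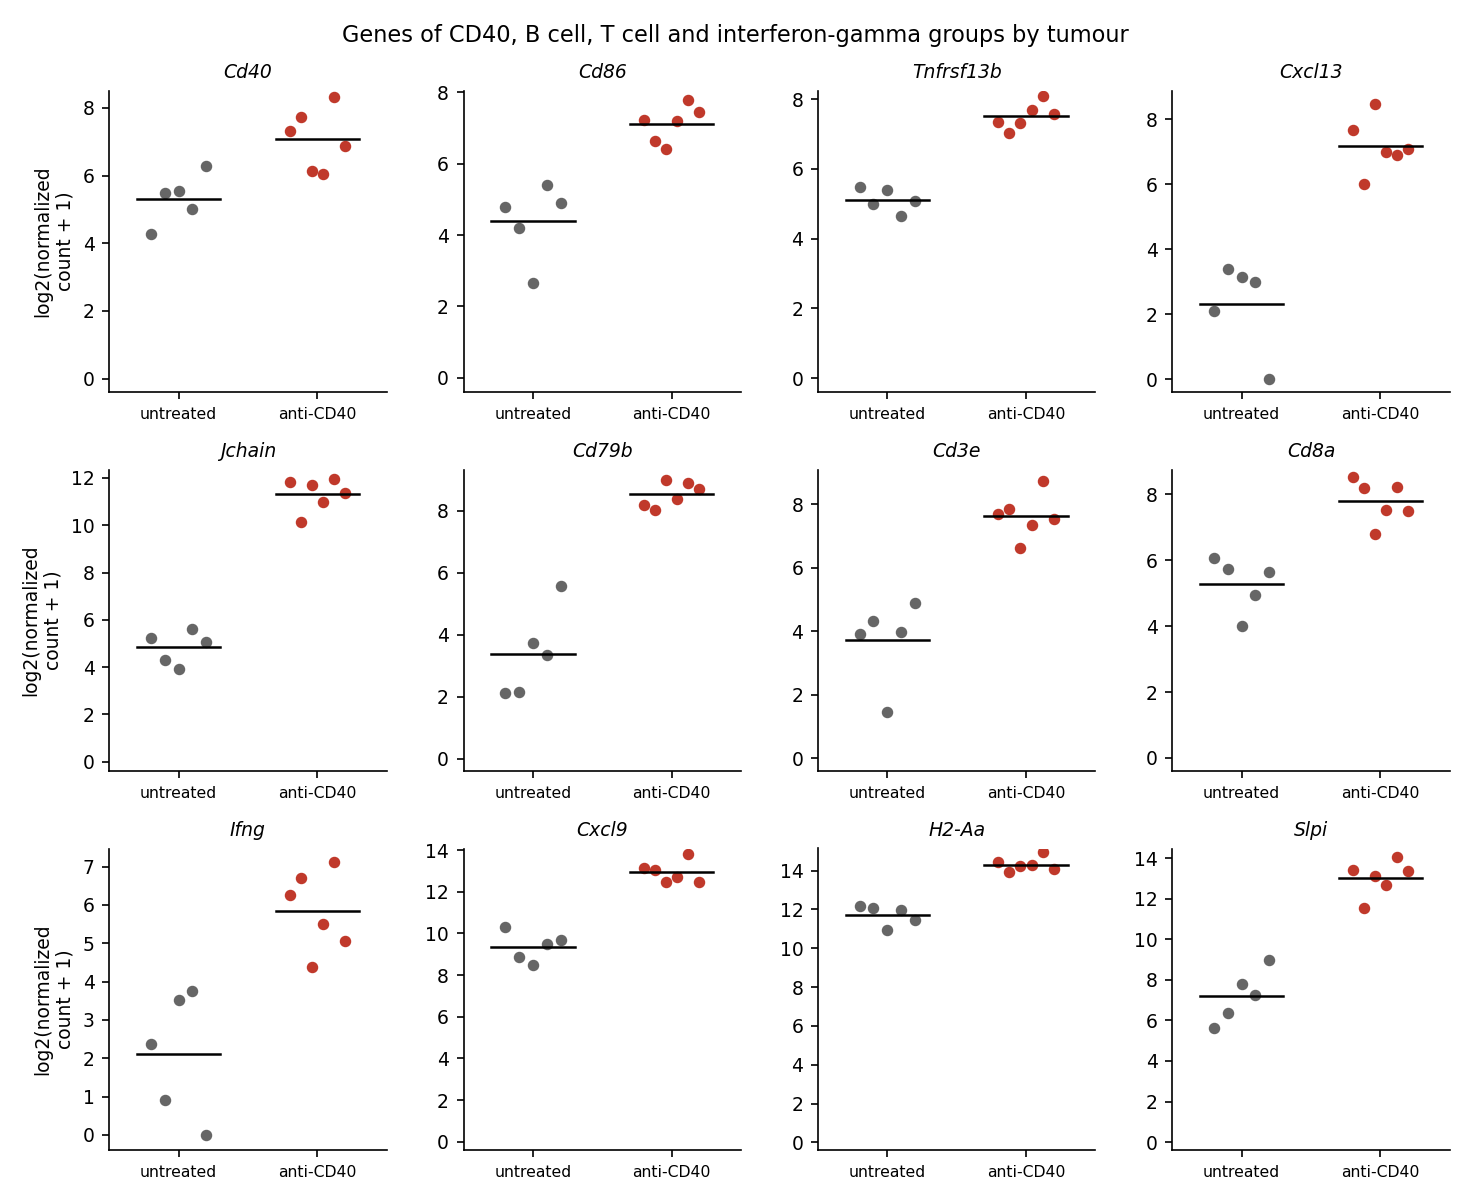
Log2(normalized count + 1) of 12 genes in the 5 untreated and 6 anti-CD40 tumours. Points are tumours and bars are group means on that scale. All 6 anti-CD40 tumours lie above all 5 untreated tumours in each panel except Cd40, in which untreated tumour 6 (76.4) exceeds anti-CD40 tumours 3 and 4.

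Most genes of the interferon-gamma response rose. Of 26 tested genes 20 rose, 0 fell, and in all 20 of those every anti-CD40 tumour was above every untreated tumour, against 5.03% of all genes tested; the median log2 fold change was 2.55. To show what these genes share in sequence, windows from 250 bases before to 50 after the RefSeq start (GRCm38.p6) were searched on either strand for GAAA, any 2 bases and GAAA again. This is a core of the interferon-stimulated response element, to which IRF and STAT complexes bind. A match was found in 11 of the 17 list members with a window that were counted (64.7%) and in 8 of the 13 that rose (61.5%). Of the 27025 genes with a window 3.99% had a match. Members on a chromosome left out of the list search were not counted, whereas the share over all genes includes that chromosome. It was absent from these windows of Irf1, Cxcl9, Serpina3f, Serpina3g and Ubd, which rose, and present in Tgtp1, Tgtp2 and Socs1, which were not called. Matches stand in capitals in the windows of 4 members that rose, which show the same core on either strand and at different distances from the start. Each sequence is written 5′ to 3′ on the strand of the gene.
Gbp2 (chr3:142620413-142620712, plus strand): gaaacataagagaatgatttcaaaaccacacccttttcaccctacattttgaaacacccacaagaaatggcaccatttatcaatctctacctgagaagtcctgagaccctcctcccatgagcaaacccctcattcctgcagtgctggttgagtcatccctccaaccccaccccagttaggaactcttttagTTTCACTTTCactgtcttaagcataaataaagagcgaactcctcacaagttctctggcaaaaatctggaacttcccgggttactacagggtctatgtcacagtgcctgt
Gbp3 (chr3:142559794-142560093, plus strand): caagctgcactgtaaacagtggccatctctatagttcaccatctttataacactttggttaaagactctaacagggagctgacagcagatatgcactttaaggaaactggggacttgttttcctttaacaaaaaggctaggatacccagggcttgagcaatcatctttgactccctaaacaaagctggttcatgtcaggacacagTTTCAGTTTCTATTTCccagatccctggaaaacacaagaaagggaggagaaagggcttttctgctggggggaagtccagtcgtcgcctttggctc
Igtp (chr11:58199306-58199605, plus strand): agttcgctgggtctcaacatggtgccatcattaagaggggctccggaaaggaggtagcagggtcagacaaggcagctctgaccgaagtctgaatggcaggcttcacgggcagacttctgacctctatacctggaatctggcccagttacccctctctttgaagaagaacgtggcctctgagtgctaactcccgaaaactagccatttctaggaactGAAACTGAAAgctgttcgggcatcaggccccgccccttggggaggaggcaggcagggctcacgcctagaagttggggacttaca
Cxcl10 (chr5:92348840-92349139, minus strand): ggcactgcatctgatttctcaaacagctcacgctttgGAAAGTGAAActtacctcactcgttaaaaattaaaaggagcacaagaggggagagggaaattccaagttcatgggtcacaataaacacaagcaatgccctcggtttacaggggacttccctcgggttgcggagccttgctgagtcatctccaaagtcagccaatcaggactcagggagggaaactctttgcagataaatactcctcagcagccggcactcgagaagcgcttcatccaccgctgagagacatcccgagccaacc
A match describes these letters and is not a shown binding site.

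Gbp2, a guanylate-binding protein that attacks the vacuoles of intracellular pathogens, read 505, 213, 233, 267 and 148 in the untreated tumours and 1353 to 3646 (median 2783) in the anti-CD40 tumours (log2 fold change 3.30 ± 0.39, limma adjusted p = 3.5e-06). Igtp, an immunity-related GTPase, went from 1539, 470.4, 573, 890.1 and 953 to 3509.9 to 9751 (median 4720.2) (2.64 ± 0.32, limma adjusted p = 4.1e-06), and Cxcl10, a CXCR3 ligand, from 138, 64.7, 79.8, 55.0 and 35.1 to 296 to 1422 (median 640.5) (3.19 ± 0.51, limma adjusted p = 0.00012). Anti-CD40 tumours 3 and 6 were the lowest of their group for Gbp2 and Cxcl10, and still above every untreated tumour. Gbp3 rose by 2.61 ± 0.33 and Gbp5 by 2.90 ± 0.31 (limma adjusted p = 6.9e-06 and 8.2e-07). Serpina3g and Serpina3f, protease inhibitors of lymphoid and myeloid cells, rose by 3.89 ± 0.37 and 3.93 ± 0.40 (limma adjusted p = 2.4e-07 and 4.8e-07). The Gbp and Serpina3 families hold near-identical copies, between which reads may have been split. Gbp2, Gbp3 and Igtp are given for their windows and were picked with their values known.

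Part of the type I interferon list rose. Of 25 tested genes 9 rose, beside 11% of all genes, with a median log2 fold change of 0.78. With the acinar covariate 4 rose, beside 7.68% of all genes. Under equal totals 1 rose and 1 fell, beside 3.75% and 13.0% of all genes. Stat2, part of the complex that type I interferon activates, read 219.6, 189.9, 232, 202 and 268 in the untreated tumours and 446 to 707 (median 529) in the anti-CD40 tumours, without overlap (1.27 ± 0.16, limma adjusted p = 8.3e-06). Zbp1, a sensor of nucleic acids, rose by 2.21 ± 0.38, Oasl2 by 1.59 ± 0.33 and Bst2, an antiviral tether, by 1.06 ± 0.25 (limma adjusted p = 0.00024, 0.0015 and 0.0043). The classical genes Isg15, Ifit1, Ifit3 and Rsad2 were not called. The GAAA core searched for above was in 9 of the 18 members of this list that were counted, those classical genes among them. It was in 3 of the 7 counted members that rose. Whether the interferon-gamma and type I lists differ from each other was not tested.

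Antigen presentation genes rose in both MHC classes. Of 16 MHC class II genes 13 rose and 0 fell, with a median log2 fold change of 2.16. H2-Aa, the alpha chain of the class II molecule I-A, read 4686, 4369, 1992, 3956 and 2801 in the untreated tumours and 15351 to 31371 (median 19313) in the anti-CD40 tumours, all above the untreated range (log2 fold change 2.58 ± 0.32, limma adjusted p = 5.5e-06). H2-Eb2, a beta chain gene of the I-E region, had no read in any untreated tumour and read 24.4 to 101 (median 69.8) with anti-CD40. Its mean was at least 111-fold above the floor of 3 reads. H2-Ob, a chain of the class II modulator H2-O that B cells express, went from 12.5, 6.91, 5.26, 17.2 and 10.0 to 139 to 305 (median 229.7) (4.35 ± 0.61, limma adjusted p = 2.4e-05). Ctss, the protease that clears the invariant chain from class II, went from 3272, 3696, 2409, 4148 and 4763 to 11059 to 30923 (median 13756) (2.13 ± 0.23, limma adjusted p = 8.2e-07). H2 genes are close paralogs, so reads may be split among them.

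Class II promoters carry an X box and a Y box that bind RFX and NF-Y, the platform for the coactivator CIITA. CTGATTGG, a Y box with its flanking bases, was searched for on either strand. It was found in the windows of 4 of 12 class II members (H2-Aa, H2-Eb1, H2-Eb2 and H2-Oa) and in 4.7% of all genes with a window. All 4 rose, but so did 10 of the 12, so the matches cannot tell members that rose from the others. Among class I genes CTGATTGG was in 4 of 14 (H2-K1, H2-D1, Psmb9 and Tap1). Members on the chromosome left out of the list search above were again not counted in either class. The windows of the alpha chain of I-A and the beta chain of I-E show it at a similar distance from the start, with CTGATTGG in capitals.
H2-Aa (chr17:34287774-34288073, minus strand): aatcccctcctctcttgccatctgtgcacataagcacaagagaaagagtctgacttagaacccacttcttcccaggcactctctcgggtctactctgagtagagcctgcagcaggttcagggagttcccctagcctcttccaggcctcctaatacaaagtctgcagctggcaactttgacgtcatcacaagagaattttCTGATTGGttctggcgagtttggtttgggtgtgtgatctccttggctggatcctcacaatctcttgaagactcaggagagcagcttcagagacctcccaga
H2-Eb1 (chr17:34305617-34305916, plus strand): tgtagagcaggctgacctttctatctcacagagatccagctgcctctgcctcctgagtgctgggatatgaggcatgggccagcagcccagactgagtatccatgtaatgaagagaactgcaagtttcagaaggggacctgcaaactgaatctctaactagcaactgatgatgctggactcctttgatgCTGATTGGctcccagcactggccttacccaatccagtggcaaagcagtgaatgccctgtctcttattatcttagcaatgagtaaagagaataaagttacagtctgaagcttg
The first bases of the capitals lie 51 and 62 bases before the start. H2-Eb1 read 5579, 3874, 1947, 5322 and 11217 in the untreated tumours and 20001 to 48005 (median 26020.0) in the anti-CD40 tumours (log2 fold change 2.52 ± 0.35, limma adjusted p = 2.5e-05; shown for its window and chosen after its values were seen). Of 17 class I and peptide-loading genes 11 rose and 0 fell (6 rose under equal totals). Tap1, a subunit of the transporter that feeds peptides to class I, went from 668, 284, 231, 378 and 606 to 1548 to 2799 (median 1810.0) (2.32 ± 0.27, limma adjusted p = 1.9e-06). Nlrc5, the class I coactivator, rose by 2.35 ± 0.28 and B2m, the class I light chain, by 1.65 ± 0.21 (limma adjusted p = 3.1e-06 and 8.5e-06). With quantile normalization B2m was 0.64 and not called (adjusted p = 0.49).

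Many macrophage and monocyte genes rose. Of 25 tested macrophage genes 15 rose and 0 fell (median log2 fold change 1.21; 7 under equal totals). Adgre1, which encodes the macrophage marker F4/80, read 185, 170.0, 233, 202 and 313 in the untreated tumours and 456 to 1548 (median 899.8) in the anti-CD40 tumours, without overlap (2.03 ± 0.24, limma adjusted p = 3.5e-06). C1qc, a chain of the complement starter C1q that macrophages make, went from 645, 879.5, 767, 843 and 684 to 2033 to 6149 (median 2931) (2.06 ± 0.22, limma adjusted p = 8.2e-07). Lyz2, a lysozyme of myeloid cells, rose by 2.86 ± 0.37 (limma adjusted p = 1.2e-05). Its near-identical copy Lyz1, known from Paneth cells, moved with it (4.53 ± 0.51, limma adjusted p = 1.9e-06), and reads of the 2 genes may not be told apart. Acod1, the itaconate enzyme of activated macrophages, went from 34.1, 12.1, 37.7, 33.2 and 80.1 to 123 to 500.2 (median 155) (2.60 ± 0.44, limma adjusted p = 0.0002), and Cybb, the oxidase chain of phagocytes, rose by 2.36 ± 0.29 (limma adjusted p = 5.4e-06). Csf1r was high in all tumours, at 5542, 4696, 3886, 6067 and 30451 and 8935 to 26556 (median 13608), with untreated tumour 6 the highest of all 11, and was not called (0.92 ± 0.39, limma adjusted p = 0.11; chosen after its values were seen). Of 14 monocyte genes 9 rose (5 under equal totals), led by Ly6c2, the Ly6C antigen of inflammatory monocytes and also of memory T cells and plasma cells. It read 13.3, 22.4, 11.4, 17.2 and 68.9 in the untreated tumours and 747 to 2857 (median 1518) in the anti-CD40 tumours (6.09 ± 0.46, limma adjusted p = 2.1e-08). Ly6i, a close paralog, rose by 5.66 ± 0.54 (limma adjusted p = 3.5e-07).

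Most receptors for antibody rose. Of 11 tested Fc receptors 9 rose and 0 fell, and under equal totals 4 rose and 1 fell. Fcer1g, the shared signalling chain of activating Fc receptors, read 1519, 979, 1286, 1611 and 2229 in the untreated tumours and 3200.2 to 8632 (median 3879) in the anti-CD40 tumours, without overlap (1.57 ± 0.23, limma adjusted p = 3.1e-05). Fcgr3, an activating receptor for IgG, rose by 1.17 ± 0.21 (limma adjusted p = 0.00031). Fcrl1, an Fc receptor-like protein of B cells, and Fcmr, the receptor for IgM, rose by 5.35 ± 0.77 and 4.03 ± 0.60 (limma adjusted p = 3.2e-05 and 4.4e-05). The transport receptors Fcgrt and Pigr were the 2 members not called. Of 19 complement genes 13 rose (5 under equal totals), among them C1ra, a protease of the C1 complex, from 236, 156, 269, 192 and 403 to 830.3 to 1848 (median 1090.1) (2.22 ± 0.26, limma adjusted p = 3.1e-06), and C3, the central component, from 1388, 1025, 5005, 2261 and 9786 to 10254 to 23628 (median 12952) (2.30 ± 0.43, limma adjusted p = 0.00059).

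Some neutrophil genes rose. Of 18 tested 8 rose and 2 fell, the latter beside 7.56% of all genes. With the acinar covariate 7 rose and 0 fell, and under equal totals 5 rose and 2 fell. Fpr2, a receptor for formyl peptides, read 52.4, 30.2, 64.1, 45.8 and 138 in the untreated tumours and 360.3 to 1742 (median 545) in the anti-CD40 tumours (3.44 ± 0.36, limma adjusted p = 5.8e-07). Ly6g, the defining surface marker, had no read in any untreated tumour and 0 to 63.4 (median 20) with anti-CD40, where tumour 6 was also at 0. Its mean was at least 42.0-fold above the floor of 3 reads (log2 fold change 3.90 ± 0.81, limma adjusted p = 0.0014). Ngp, a granule protein of immature neutrophils, went from 6.66, 17.3, 21.9, 8.02 and 7.51 to 41.9 to 2053 (median 517), spread over a wide range (5.26 ± 1.16, limma adjusted p = 0.0035). The 2 that fell were Cxcr2, given above, and Ltf, a secondary granule protein that glandular epithelium also makes (-1.53 ± 0.47, limma adjusted p = 0.026; adjusted p = 0.15 with the covariate). Among 13 genes of mast cells, basophils and eosinophils 1 rose and 2 fell, beside 11% and 7.56% of all genes. Prg2, an eosinophil granule protein, rose (3.97 ± 0.92, limma adjusted p = 0.0037; adjusted p = 0.054 with the acinar covariate). The mucosal mast cell proteases Mcpt1 and Mcpt2 fell, and with the covariate neither was called (adjusted p = 0.15 for Mcpt1). Mcpt2 read 1116, 713, 962, 1188 and 952 in the untreated tumours and 46.4 to 520.1 (median 240.4) in the anti-CD40 tumours, all below the untreated range (-2.54 ± 0.76, limma adjusted p = 0.023), but the call was lost with the covariate (0.11) and without anti-CD40 tumour 5 or 6 (0.06 and 0.055).

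Slpi, a secreted inhibitor of leukocyte proteases, stood among the 12 largest rises with the highest level of them outside the acinar and islet genes (chr2:164354070-164389095). It read 49.1, 80.3, 222, 152 and 502 in the untreated tumours and 3043 to 17126 (median 9797) in the anti-CD40 tumours. Every anti-CD40 tumour, tumour 2 the lowest, was above every untreated tumour, tumour 6 the highest, and the log2 fold change was 5.83 ± 0.54 (SE; limma adjusted p = 4.1e-07). With the acinar covariate it was 5.19 and in tumours 1 and 5 alone 6.53 (limma adjusted p = 8.5e-06 and 3.1e-05). Among the 12 largest rises were Mzb1, Cela2a, Jchain, Pax5, Ly6c2, Glycam1, H2-Eb2, Slpi, Prss3, Ly6i and Ins2. Cela2a, Prss3 and Ins2, a pancreatic elastase, a trypsinogen and insulin, lost their call with the acinar covariate, and the other 8 of these kept it. The covariate is computed from acinar genes, Cela2a and Prss3 among them, so the loss of these calls was built in.

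The 12 largest falls included Otop3 and Cym, both in the list of gastric and mucosal epithelium. The 12 were Otop3, Prap1, Cym, Mucl3, Ern2, Tmem212, Otop2, Adh7, Onecut3, Tcf23, Egfl6 and Ush1g. Otop3 (chr11:115334731-115346927), which encodes a proton channel of the otopetrin family, read 847, 851, 643, 526 and 1077 in the untreated tumours and 0 to 139.9 (median 18.1) in the anti-CD40 tumours. Anti-CD40 tumours 5 and 6 had no read, tumour 3 was the highest of its group, and all 6 were below every untreated tumour (log2 fold change -6.22 ± 1.04, limma adjusted p = 0.00021). Its family member Otop2 went from 69.0, 118, 103, 71.0 and 6.26 to 0 to 8.29 (median 0.660) (-4.77 ± 0.87, limma adjusted p = 0.00042). Cym, the gastric protease chymosin, went from 414, 943, 294, 141 and 57.6 to 0 to 47.5 (median 4.75) (-5.34 ± 1.0, limma adjusted p = 0.00054), and Ern2, the IRE1 isoform of mucous cells, from 44.9, 124, 99.1, 30.9 and 15.0 to 0 to 6.29 (median 0) (-4.93 ± 0.84, limma adjusted p = 0.00019). Onecut3, a transcription factor of the same family as Onecut2 below, fell from 719.6, 761, 576, 682 and 455 to 0.786 to 145 (median 44.2) (-4.60 ± 1.01, limma adjusted p = 0.0029). The smallest of the 12 was that of Ush1g, -4.46 ± 0.83 (limma adjusted p = 0.00048). The groups of Otop2 overlapped, because anti-CD40 tumour 1 was above untreated tumour 6, and those of the other 11 did not.

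All 12 were still called with the acinar level as a covariate, with log2 fold changes from -5.73 for Otop3 to -3.21 for Egfl6. Egfl6 was not called in tumours 1 and 5 alone (adjusted p = 0.068). Prap1 and Adh7 were not called by DESeq2 on the recovered reads (adjusted p = 0.069 and 0.057). Of 28 tested genes of gastric and mucosal epithelium 10 fell and 0 rose, with a median log2 fold change of -1.41, and 9 fell with the covariate. Myo1a, a brush border myosin, read 256, 454, 198, 178 and 366 in the untreated tumours and 5.36 to 85.8 (median 21.2) in the anti-CD40 tumours, without overlap (-3.60 ± 0.67, limma adjusted p = 0.0005). Onecut2, a transcription factor of foregut epithelium, went from 31781, 33600.0, 26026, 33209 and 13754 to 1843 to 13081 (median 8076) (-2.16 ± 0.51, limma adjusted p = 0.0051), and lost its call with the covariate (0.072).

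**Figure D4:**
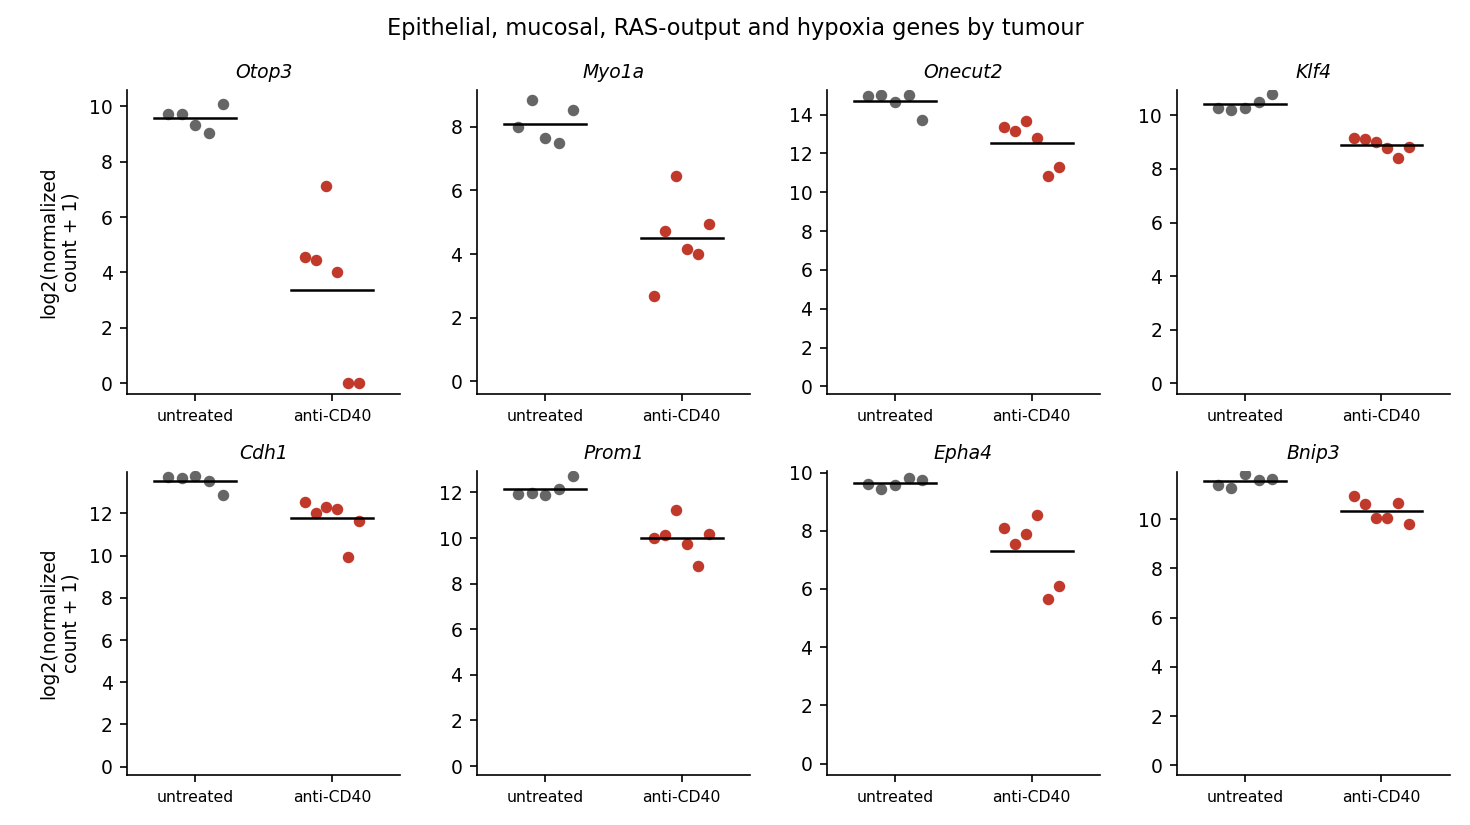
Log2(normalized count + 1) of 8 genes of mucosal epithelium, epithelial junctions, RAS output and hypoxia in the 5 untreated and 6 anti-CD40 tumours. Points are tumours and bars are group means on that scale. All 6 anti-CD40 tumours lie below all 5 untreated tumours in each panel, and the spread among them is widest for Otop3, from 0 to 139.9 normalized counts.

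General epithelial genes fell in part. Of 32 tested genes of epithelial identity and junctions 12 fell and 0 rose, with a median log2 fold change of -1.22. In tumours 1 and 5 alone 10 fell, and with the acinar covariate 5 did. Cdh1, the E-cadherin of epithelial junctions, read 13341, 13226, 14139, 11902 and 7387 in the untreated tumours and 967 to 5879.6 (median 4424) in the anti-CD40 tumours. Tumour 5, with an acinar share of 3.06%, was the lowest, and no anti-CD40 tumour reached the untreated range (log2 fold change -1.75 ± 0.34, limma adjusted p = 0.00092). Prom1, a protein of membrane protrusions, went from 3904, 4014, 3768, 4583 and 6756 to 441 to 2401 (median 1082) (-2.12 ± 0.37, limma adjusted p = 0.00028). Krt19, a ductal keratin, went from 6008, 6328, 5083, 5657 and 2918 to 383 to 3014 (median 2134), lowest in tumours 5 and 6 (-1.88 ± 0.51, limma adjusted p = 0.013). Epcam went from 1062, 2202, 1499, 1135 and 846 to 163 to 1583 (median 377), with anti-CD40 tumour 1 inside the untreated range (-1.67 ± 0.40, limma adjusted p = 0.0048). Krt19 and Epcam lost their calls with the covariate (0.14 and 0.064), Epcam also in tumours 1 and 5 alone (0.15). Klf4, a zinc-finger factor of epithelial differentiation listed here for type 2 dendritic cells, fell from 1249, 1177, 1252, 1433 and 1789 to 339.8 to 570.4 (median 484) (-1.53 ± 0.19, limma adjusted p = 6.1e-06). Of 13 squamous and basal genes 5 fell (2 with the covariate), among them Krt14 (-4.34 ± 0.96, limma adjusted p = 0.0024), and Ly6d, which B cell and plasmacytoid precursors also carry, rose (2.43 ± 0.46, limma adjusted p = 0.00063).

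Lists of RAS output and of glycolysis fell in part. Of 20 tested genes of RAS and MAPK output 8 fell and 1 rose (median log2 fold change -1.04), but with the acinar covariate 2 fell and in tumours 1 and 5 alone 3 did. Epha4, an ephrin receptor, read 787, 689.6, 753, 907 and 854 in the untreated tumours and 49.5 to 367 (median 211) in the anti-CD40 tumours, without overlap and lowest in tumours 5 and 6 (-2.33 ± 0.37, limma adjusted p = 8.6e-05). Phlda1 fell by 1.82 on the log2 scale (limma adjusted p = 0.0019), and Etv1, an ETS factor, was the member that rose (1.39 ± 0.35, limma adjusted p = 0.0073). Of 26 genes of glycolysis and hypoxia 14 fell and 0 rose (median -0.98), against 5 lower and 1 higher with the acinar covariate and 3 lower and 1 higher in tumours 1 and 5 alone. Bnip3, a mitophagy protein that hypoxia induces, went from 2671, 2439, 3654, 3042 and 3159 to 899 to 1973 (median 1317), and anti-CD40 tumour 1 was the highest of its group (-1.18 ± 0.21, limma adjusted p = 0.00024). Pfkl, a phosphofructokinase of glycolysis, went from 4329, 3471, 3913, 3978 and 4789.6 to 671 to 2194 (median 1772) (-1.42 ± 0.27, limma adjusted p = 0.00075). Both stayed called with the covariate (0.0074 and 0.018). Of 21 genes of cholesterol and fatty acid synthesis 4 fell, beside 7.56% of all genes: Hmgcs1 (-0.76 ± 0.18, limma adjusted p = 0.0045), Msmo1, Cyp51 and Fdps. With the covariate Hmgcs1 alone of these was still called (adjusted p = 0.13, 0.093 and 0.063 for the others), and under equal totals 7 fell. The call of Fdps was lost without any 1 of anti-CD40 tumours 5 and 6 or untreated tumours 1, 3, 5 and 6 (adjusted p from 0.053 to 0.094).

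Proliferation genes gave no such pattern. Of 30 tested genes of DNA replication and mitosis 1 rose and 0 fell, beside 11% and 7.56% of all genes (median 0.00, and -0.58 under equal totals, the shift of all genes). The riser was Ccne1, cyclin E1 (0.83 ± 0.25, limma adjusted p = 0.019), whose call was lost without anti-CD40 tumour 4 (0.051), without untreated tumour 2 (0.053) and with the acinar covariate (0.058). Mki67, the gene of the proliferation antigen Ki-67, read 307, 257, 229, 448 and 518 in the untreated tumours and 194 to 372 (median 269) in the anti-CD40 tumours (-0.36 ± 0.25, limma adjusted p = 0.36). The groups overlapped, with untreated tumours 5 and 6 the highest. Of 20 oxidative phosphorylation genes Sdha alone was called, and its small rise (0.41 ± 0.13, limma adjusted p = 0.027) turned to a value below 0 under equal totals (-0.18, adjusted p = 0.7) and was not called without anti-CD40 tumour 5 or 6 or untreated tumour 6 (0.051 to 0.066). Of 20 ribosomal protein genes 1, Rpl7, fell (-0.76 ± 0.19, limma adjusted p = 0.0069), beside 7.56% of all genes. Under equal totals 6 did, beside 13.0% of all genes. Among 14 p53 targets 3 rose and 1 fell, beside 11% and 7.56% of all genes. Sesn1, a stress-induced sestrin, went from 36.6, 41.4, 38.6, 12.6 and 31.3 to 71.2 to 758 (median 177), highest in tumour 6, whose acinar share was also the highest (2.46 ± 0.50, limma adjusted p = 0.0012; 1.89 with the covariate, adjusted p = 0.028). The others, Ccng1, Trp53inp1 and the falling Phlda3, lost their calls with the covariate (adjusted p = 0.09, 0.19 and 0.17). Trp53inp1 lost it also without untreated tumour 1 (0.057), and Phlda3 without any 1 of anti-CD40 tumours 1, 3, 4 and 6 or untreated tumours 1, 5 and 6 (0.058 to 0.13). Edem1, which sorts misfolded proteins for degradation, was 1 of 4 of 21 unfolded protein response genes that rose, beside 11% of all genes, and the sole one that rose under equal totals. It read 387, 389, 479.9, 370.0 and 322 in the untreated tumours and 854 to 5278 (median 1318) in the anti-CD40 tumours, again highest in tumour 6 (1.98 ± 0.33, limma adjusted p = 0.00016). Creld2 also stayed called with the covariate, though not under equal totals (adjusted p = 0.38), and Dnajb11 and Dnajc3 did not (adjusted p = 0.073 and 0.65). Dnajc3 was lost also without any 1 of anti-CD40 tumours 2, 3, 4 and 6 or untreated tumours 1, 2, 3 and 5 (0.051 to 0.099). Hspa5, the chaperone BiP, and the stress factors Ddit3 and Atf4 were not called.

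In the stroma, some genes of matrix, vessels and inflammatory fibroblasts rose. Of 24 matrix genes of fibroblasts 7 rose and 1 fell, but with the acinar covariate 3 rose, under equal totals 1 rose and 1 fell, and the median log2 fold change turned from 0.57 to -0.02. Col1a1, a chain of collagen I, read 14530.0, 21738, 27335, 15383 and 33937 in the untreated tumours and 16813 to 61248 (median 34964) in the anti-CD40 tumours and was not called (0.60 ± 0.27, limma adjusted p = 0.13). It was called higher in tumours 1 and 5 alone (1.12, adjusted p = 0.025) and without anti-CD40 tumour 2 (0.033). Dcn, the proteoglycan decorin, went from 815, 1403, 2743, 1083 and 2131 to 2090.3 to 8429.8 (median 6194) (1.85 ± 0.39, limma adjusted p = 0.0018). Tnc, tenascin C, fell from 2828, 6712, 3476, 2696 and 3862 to 818 to 2022 (median 1712), without overlap (-1.30 ± 0.30, limma adjusted p = 0.004; 0.097 with the covariate). Of 14 genes of contractile fibroblasts and pericytes, 1 rose and 1 fell, beside 11% and 7.56% of all genes, with a median log2 fold change of -0.07. Rgs5, a pericyte regulator of G protein signalling, rose (1.42 ± 0.36, limma adjusted p = 0.0068; adjusted p = 0.23 under equal totals). Tagln, a contractile protein of myofibroblasts and smooth muscle, went from 311, 363, 390.4, 359 and 900.3 to 92.4 to 159.7 (median 123), all 6 below the untreated range (-1.81 ± 0.33, limma adjusted p = 0.00048). Of 15 inflammatory fibroblast genes 8 rose (5 with the covariate), including Ly6c1 (1.60 ± 0.23, limma adjusted p = 2.5e-05) and Cxcl12, the ligand of CXCR4 (2.14 ± 0.47, limma adjusted p = 0.0028).

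Of 19 endothelial genes 9 rose and 0 fell, 2 of them also under equal totals. The 4 with the smallest p held 3 markers of lymphatic vessels. Mmrn1, a lymphatic multimerin, read 13.3, 0, 7.02, 19.5 and 27.5 in the untreated tumours and 34.3 to 266 (median 128) in the anti-CD40 tumours (3.48 ± 0.63, limma adjusted p = 0.0004). Prox1, the transcription factor of lymphatic identity, which islet cells also express, went from 48.3, 27.6, 121, 85.9 and 86.4 to 232 to 494 (median 283) (2.23 ± 0.45, limma adjusted p = 0.0011). Flt4, the receptor VEGFR3, rose by 1.52 ± 0.28 (limma adjusted p = 0.00045). Lyve1, another lymphatic marker, that macrophages share, was at 111, 81.1, 80.7, 61.9 and 153 and 26.0 to 129 (median 116) and was not called (-0.04 ± 0.41, limma adjusted p = 0.96; chosen after its values were seen). Mmrn1 and Prox1 did not overlap between the groups.

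The acinar and islet genes themselves were read as a measure of pancreas in the sections. Of 44 tested acinar genes 7 were called higher and 0 lower, beside 11% and 7.56% of all genes. Their median log2 fold change was 5.04, and in 0 of them did the groups separate without overlap. Cela2a, a pancreatic elastase, read 0, 2.59, 1449, 1926 and 1607 in the untreated tumours and 459 to 163150.0 (median 30599) in the anti-CD40 tumours. It was near 0 in untreated tumours 1 and 2 and highest in anti-CD40 tumour 6, which had the lowest and highest acinar shares (6.92 ± 2.14, limma adjusted p = 0.03). The call was lost without any 1 of untreated tumours 1 and 2 or anti-CD40 tumours 2, 3, 4 and 6 (adjusted p from 0.0502 to 0.0974). Prss1, a trypsinogen with near-identical copies, read 0, 0, 0, 0 and 8.77 and then 1.46 to 581 (median 32.5) (4.67 ± 1.13, limma adjusted p = 0.0052). Of 21 islet genes 11 rose and 0 fell. Ins2, insulin, went from 79.9, 0, 192, 661 and 3936 to 1418 to 70378 (median 4686), overlapping the untreated range (5.51 ± 1.68, limma adjusted p = 0.028). The call of Ins2 was lost without anti-CD40 tumour 6 (0.064) and without untreated tumour 1 or 2 (0.062 and 0.076). The islet share of reads was 0.0130% to 0.0719% in untreated and 0.0560% to 0.297% in anti-CD40 tumours. It did not follow the acinar share in every tumour. Anti-CD40 tumour 1, with an acinar share of 0.726%, had an islet share of 0.173%, above tumours 2, 3 and 4 (0.109%, 0.0795% and 0.0723%). Tumour 5 was the lowest of its group in islet share, and tumour 6 was the highest in both. With the acinar covariate 0 acinar genes were called higher and 1 lower, and 2 islet genes higher. The covariate is the mean log2 level of these same acinar genes. The loss of the acinar calls was therefore built in and tests nothing. Of the other tissues that a section could hold, 0 of 8 liver, 0 of 8 muscle and 0 of 6 nerve genes were called, beside 18.6% of all genes. Of 5 mesothelium genes 2 rose (Gpm6a and Wt1) and 1 fell (Krt19, given above), with a median log2 fold change of -0.90. Wt1 lost the call with the covariate (0.2), under equal totals (0.31) and without untreated tumour 1 (0.054). Of 10 adipocyte genes Lpl (1.76 ± 0.32, limma adjusted p = 0.00035) and Pnpla2 rose and Cidec fell, beside 11% and 7.56% of all genes. Pnpla2 and Cidec each lost the call without any 1 of 5 tumours (0.064 to 0.1 and 0.052 to 0.08), anti-CD40 tumour 5 and untreated tumour 5 among them for both.

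A direct limma test set the anti-CD40 tumours against the beta-glucan tumours, which received the other agent alone. It called 300 of 14278 genes (2.10%), 230 higher with anti-CD40 (1.61%) and 70 lower (0.490%). The genes higher with anti-CD40 included lymphoid and interferon genes: 10 of 17 B cell genes, 12 of 21 T cell receptor genes, 16 of 26 interferon-gamma genes and 11 of 16 MHC class II genes were called higher, and 0 lower. Of 27 genes of CD40 signalling and NF-kB 1 was called higher and 0 lower, beside 1.61% and 0.490% of all genes. Their median log2 difference from beta-glucan was -0.01. Of 25 macrophage genes 2 were called higher and 1 lower, beside the same shares, and 0 of 32 epithelial genes were called either way. Under equal totals 34 genes in all were called, 15 higher with anti-CD40 and 19 lower. Whether these lists differ from each other was not tested. Gzmf and Gzmg, near-identical granzymes of activated cytotoxic cells, stood first. Gzmf read 0 to 6.65 (median 0) in the beta-glucan tumours and 10.6 to 1638 (median 172) in the anti-CD40 tumours, with 6.66, 16.4, 5.26, 0 and 15.0 in the untreated ones. Anti-CD40 tumours 2 and 5 were the highest, tumours 3 and 4 lay inside the untreated range, and the log2 difference from beta-glucan was 6.41 ± 1.01 (limma adjusted p = 0.001). Mzb1 differed by 4.16 ± 0.79 and Ccr6 by 4.01 ± 0.81 (limma adjusted p = 0.0055 and 0.0076).

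The genes lower with anti-CD40 than with beta-glucan included the neutrophil pair. Cxcl2 read 138 to 366 (median 245) in the beta-glucan tumours, all above the anti-CD40 range given before, and Cxcr2 read 56.5 to 197 (median 145). The log2 differences were -3.42 ± 0.55 and -3.68 ± 0.60 (limma adjusted p = 0.0014 and 0.0014). Serpinb2, a plasminogen activator inhibitor of macrophages and squamous epithelium, read 43.7 to 231 (median 135) with beta-glucan and 0 to 17.3 (median 2.44) with anti-CD40, again without overlap (-5.16 ± 0.69, limma adjusted p = 0.00023). Il1f9, which encodes interleukin-36 gamma, differed by -4.34 ± 0.87, Car4, a carbonic anhydrase, by -4.43 ± 0.69 and Sprr2e, a cornified envelope protein, by -4.56 ± 0.80 (limma adjusted p = 0.007, 0.00093 and 0.0028). Il1b and Arg1, the arginase of suppressive myeloid cells, were also lower than with beta-glucan, by log2 differences of -2.12 ± 0.37 and -1.50 ± 0.32 (limma adjusted p = 0.0023 and 0.012). Neither differed from untreated by limma (adjusted p = 0.14 and 0.72). Il1b was named as the sole cytokine and Arg1 as 1 of 2 arginine and nitric oxide genes, with Hmox1, that were lower than with beta-glucan. The acinar share of the beta-glucan tumours was 0.649% to 20.2%, below 4 of the 6 anti-CD40 tumours, and with the acinar level as a covariate 159 genes were called in place of 300.

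**Figure D5:**
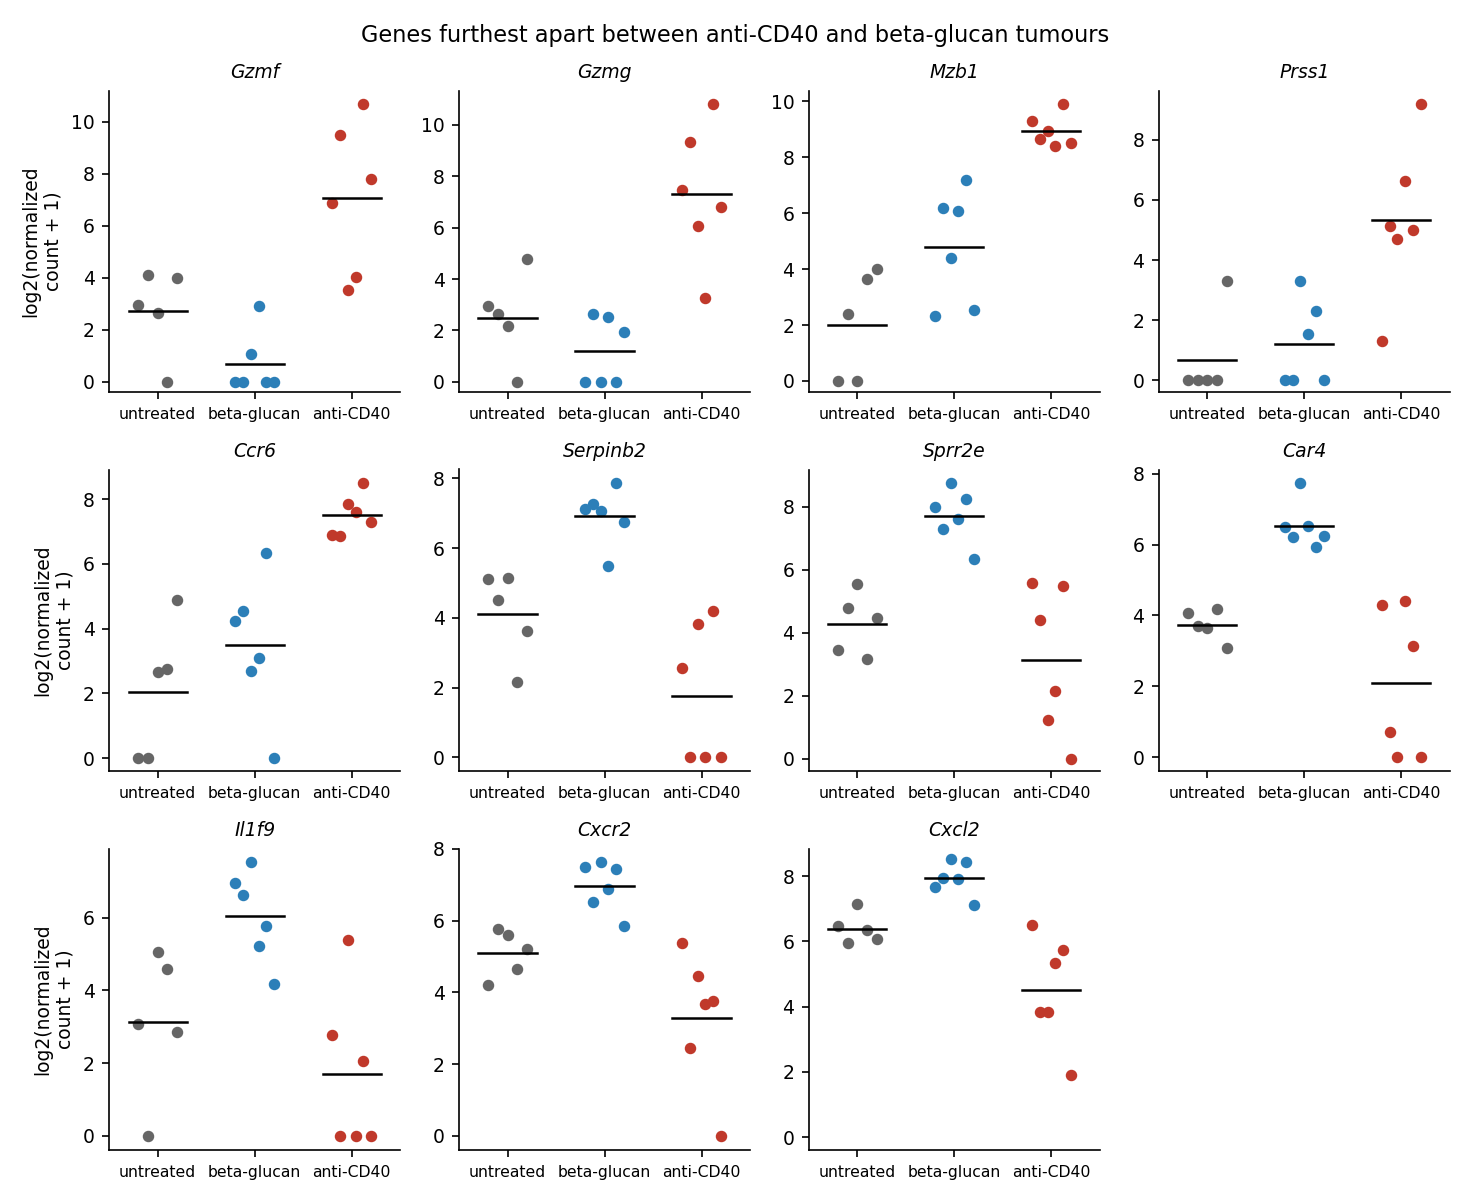
Log2(normalized count + 1) of 11 of the genes with the largest differences between anti-CD40 and beta-glucan tumours, in 5 untreated, 6 beta-glucan and 6 anti-CD40 tumours. Points are tumours and bars are group means on that scale. Gzmf to Ccr6 are higher and Serpinb2 to Cxcl2 lower with anti-CD40, and 4 of 5 untreated tumours have no Prss1 read.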

How the data were processed

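RNA from 5 µm sections of fixed tumours (100 ng of DNase-treated RNA per library) was sequenced as 3' mRNA libraries, per the labels' protocols. The authors aligned reads with STAR to mm10 and normalized them with DESeq2, per the submitters' processing notes, which give no versions. The name of a counting tool, the annotation and the strand setting were not given in the sources used here. The deposited values are normalized counts, a signal that equals reads per gene divided by 1 size factor per tumour, so whole reads could be recovered: 100% of 395252 values were whole within 0.001 reads. Of 17966 genes, 14278 had at least 10 in at least 5 of the 22 tumours and were tested; 23 names that a spreadsheet had turned into dates were kept but not named.

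The main test was limma 3.58.1 (statmod 1.5.0, R 4.3.3) on log2(value + 1), with 1 mean for each of the 4 groups over all 22 tumours, robust empirical Bayes moderation with a trend in mean level, and Benjamini-Hochberg adjustment over all genes tested at 0.05. Tumours were grouped by treatment label. The sequencing depth was 6327092 to 21173617 reads per tumour, and floors of 3 reads for genes without reads cover counting error only. The p of the acinar share came from an exact permutation test over tumours. Same-numbered untreated and anti-CD40 tumours did not deviate together in every pair, so the numbers were not taken to pair them.

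Alternatives were edgeR 4.0.16 and DESeq2 1.42.0 on the recovered reads, other pseudocounts, filters and scalings, only the groups compared, the mean log2 level of the acinar list as a covariate, a replicate block, and each tumour left out. The limma script was tested on simulated data. Promoter windows come from RefSeq and gene positions from GENCODE M21. Genes named were the 12 largest rises and falls among genes whose higher group averaged 30 or more, up to 4 called members of each of 53 lists by p, members that went against their list or made up a count of 5 or fewer, the 6 largest differences each way from beta-glucan, and a short set named in any case. Predicted genes were left out, and some genes that the rule names are not reported here. The comparison, members and lists were chosen with earlier results of these data known.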

Additional observations from a re-analysis of the deposited data

Results flagged for a closer look

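Groups of values in which the highest or lowest tumour stood apart from the rest by Dixon's 95% criterion were looked for among the acinar shares, the islet shares, the reads and the 93 genes whose values are given above. Of 192 groups tested, 21 had such a tumour, and chance alone sets apart about 1 in 20 groups. Untreated tumour 6 accounted for 11 of them. Its acinar share was 19.3%, and it was the highest of its group for Csf1r (30451 normalized counts), Tagln (900.3), Pou2af1 (21.3), Prss1 (8.77) and Cd40lg (7.51). It was the lowest for Onecut2 (13754), Cdh1 (7387), Krt19 (2918), Tnf (11.3) and Otop2 (6.26). Of the other untreated tumours, tumour 3 was low for Cd3e (1.75) and tumour 5 for Sesn1 (12.6).

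In the anti-CD40 group tumour 5 stood highest for C3 (23628), Fcer1g (8632), Irf8 (4338) and Il16 (532) and lowest for Cdh1 (967). Tumour 6 was the highest for Edem1 (5278) and the lowest for Cd274 (76.1), and tumour 2 was the lowest for Lyve1 (26.0). The acinar share was 3.06% in tumour 5 and 75.7% in tumour 6, and its part in these values was not tested.

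The 2 single agents differed in 300 genes by limma. Those with large log2 differences, anti-CD40 minus beta-glucan, included Gzmf (6.41), Gzmg (6.10), Mzb1 (4.16), Prss1 (4.13) and Ccr6 (4.01) among the higher. Among the lower they were Serpinb2 (-5.16), Sprr2e (-4.56), Car4 (-4.43), Il1f9 (-4.34), Cxcr2 (-3.68) and Cxcl2 (-3.42). The 5 tumours given both agents are not compared here but enter the filter and the shared spread of the limma model. Their median acinar share was 33.2%, above every untreated tumour.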

How the results depend on the processing

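Of 186 called genes that the naming rule gives, some of them not reported here, 114 were called in the same direction under every alternative run, and 18 lost the call without 1 tumour. The count of 2650 genes that differed between anti-CD40 and untreated tumours became 1673 with the acinar covariate and 1699 when only those groups entered the fit. It was 3125 by DESeq2, 2440 by edgeR and 2394 under equal totals, and 2057 to 2854 when each tumour was left out. Against beta-glucan, 300 genes became 634 by DESeq2, 159 with the acinar covariate, 117 in anti-CD40 tumours 1 and 5 alone (chosen after the data were seen) and 34 under equal totals (15 higher and 19 lower). Leaving out each tumour gave 160, without beta-glucan tumour 4, to 368, without anti-CD40 tumour 1. Under equal totals Pnpla2 turned to -0.040 and Sdha to -0.18. The difference in acinar share was 16.7 to 31.7 points with each tumour left out, with p from 0.0317 to 0.114. The cause of these changes was not tested. With the replicate number as a block, 2683 and 304 genes were called, and the acinar difference was 25.4 points over the 5 shared numbers (exact p = 0.188). The correlation of the deviations of same-numbered tumours ran from -0.229 to 0.249, so the block pairs tumours by number alone. Depth limited low genes most in anti-CD40 tumours 4 and 6, which had 4287820 and 3400141 reads outside the acinar genes.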

Other observations

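Some members of the lists above were not yet described and were chosen with their values known. Spn, the sialoglycoprotein CD43 of T cells and monocytes, read 27.5, 49.2, 14.0, 52.7 and 72.6 in the untreated tumours and 407 to 879 (median 416) in the anti-CD40 tumours (log2 fold change 3.71 ± 0.33, limma adjusted p = 1.3e-07). Itgal, the alpha chain of the integrin LFA-1, went from 90.7, 69.9, 57.0, 63.0 and 91.4 to 348 to 1292 (median 586) (3.09 ± 0.28, limma adjusted p = 1.3e-07). All 6 anti-CD40 tumours were above all 5 untreated tumours for both. Against beta-glucan Spn was higher (1.93 ± 0.32, limma adjusted p = 0.0015), whereas Itgal was not called (adjusted p = 0.16). Btla, an inhibitory receptor of B cells and T cells, went from 7.49, 19.0, 7.02, 12.6 and 21.3 to 73.3 to 213 (median 105) (3.22 ± 0.53, limma adjusted p = 0.00013).

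Ehf and Elf3, epithelial transcription factors of the ETS family, fell. Ehf read 313, 386, 345, 317 and 417 in the untreated tumours and 24.4 to 220.5 (median 86.9) in the anti-CD40 tumours, without overlap (-2.15 ± 0.43, limma adjusted p = 0.001). For Elf3 the log2 fold change was -2.21 ± 0.42 (SE; limma adjusted p = 0.00063), and both were still called with the acinar covariate (adjusted p = 0.0058 and 0.012). Gpm6a, a membrane glycoprotein of mesothelium and neurons, was 1 of 5 tested mesothelium genes, whose median log2 fold change was -0.90, and it rose from 0, 0, 0, 12.6 and 17.5 to 15.3 to 107 (median 60.6) (4.05 ± 0.78, limma adjusted p = 0.0007).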
